A study of Homo sapiens with 6 samples.

Results

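The first 10 Mb of chromosome 7, at the tip of its short arm, held 81 of the 20024 genes listed in a PTBP1 RIP-seq study of AC16 cells. The block described here consists of the 54 of them whose mean over the 6 libraries was at least 1 FPKM (reads scaled to gene length and to library depth), leaving out 2 genes whose names begin with EIF or COL. Another 25 genes of the block lay under that level, of which 12 had no read in any library. The study compared DCRT-KO cells, which lack the long noncoding RNA DCRT, with WT cells, and the labels name AC16 as a line of cardiomyocytes. RIP-seq sequences the RNA that comes down with a protein caught by an antibody. All 6 libraries, 3 per genotype, were made with an antibody to PTBP1, the polypyrimidine tract-binding protein, which binds CU-rich RNA and acts in splicing, stability and translation. The labels do not say whether the knockout is 1 clone or several, or whether replicates are separate cultures. Input libraries were not analysed here, so a level in RIP reflects transcript abundance as well as recovery with PTBP1. As in any bulk sample, fewer cells with a transcript and less transcript per cell cannot be told apart.

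The block was chosen by the log2 differences between DCRT-KO and WT FPKM in these same 6 libraries, where its genes had stood out as higher in the knockout. Those differences are therefore given as a description, with no test of the block. Chromosome ends are often rich in genes and in G and C, and neighbouring genes there need not share a function. The members of this block include cytoskeletal genes (beta-actin, the actin bundler fascin, the GTPase RAC1), subunits of the Integrator complex, which cleaves nascent RNA at small nuclear RNA genes and paused promoters, and genes of the Golgi, of autophagy and of DNA repair. Some of them are standard reference transcripts, ACTB above all.

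Whole reads behind the FPKM values totalled 1798841 to 2589080 in the WT libraries and 373354 to 1380722 in the DCRT-KO libraries, so depth goes with genotype. The members took 0.404% to 0.442% of the reads of a WT library, and 0.671% to 0.745% of those of a knockout library. Without ACTB and FSCN1 (fascin) these shares were 0.267% to 0.284% and 0.427% to 0.450%. Such shares follow from the members that were chosen. None of 11 cardiomyocyte markers reached a mean of 1 FPKM, and 7 of them, MYH6, MYH7 and TNNT2 included, were listed at 0 in every library. Of 5 epithelial markers, KRT8 and KRT18 reached 1 FPKM and CDH1 and KRT19 were at 0, and their summed level was 58.5 to 67.0 FPKM in WT and 93.8 to 227 in DCRT-KO. Summed fibroblast markers (2 of 7 at 1 FPKM, VIM and PDGFRA; DCN, LUM and POSTN at 0) ran from 87.7 to 105 and from 90.4 to 122 FPKM. The part of these markers in the results below was not tested.

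Of the 54 members, 48 had higher values in DCRT-KO than in WT RIP and 6 had lower ones, against 47.2% higher among the 11445 genes tested. The median log2 difference, DCRT-KO minus WT on the log2(FPKM + 1) scale, was 0.63 over the members, with quartiles of 0.27 and 0.89, and -0.04 over all tested genes. In 34 members every DCRT-KO library lay above every WT library, which was so in 15.5% of all tested genes. In none did every DCRT-KO library lie below, against 14.8%. In 5 members (LFNG, GPER1, IQCE, GPR146 and PDGFA) the WT mean was under 1 FPKM, so they met the level only through their DCRT-KO values and had to be higher; no member met it only through WT. Among the other 49, 43 had higher values, 31 without overlap, and the median log2 difference was 0.63. Past an adjusted p of 0.05 with limma over all tested genes there were 7 members, all higher. Of all tested genes 3.55% were called, 2.35% as higher and 1.2% as lower. With voom on the whole reads 21 members were called, all higher, where 9.17% of tested genes were called, 5.76% as higher and 3.41% as lower. These calls come from the contrast that chose the block. The median ratio of the DCRT-KO to the WT mean FPKM was 1.69 over the members and 0.996 over all tested genes. All 22 members with a mean of at least 10 FPKM were on the higher side, with a median log2 difference of 0.66. The share over all genes of that level was not taken. That mean includes the DCRT-KO values, so the level favours members that are high there. The calls depended on single libraries. Without WT library a, b or c limma called no member (24, 25 and 24 members at an unadjusted p below 0.05), and without DCRT-KO library 1, 2 or 3 it called 4, 2 and 18. Over all genes these 6 fits called 4, 8, 0, 204, 65 and 1528 genes, against 406 with all libraries; the fit with no call had 1991 genes at an unadjusted p below 0.05.

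**Figure D1:**
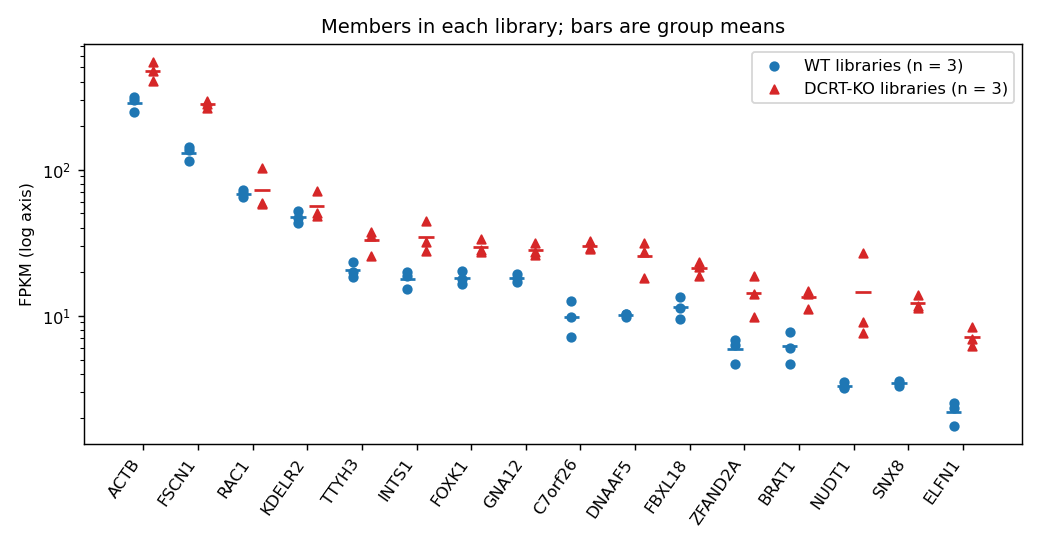
FPKM (log axis) of 16 members in each library, ordered by mean; circles are the 3 WT and triangles the 3 DCRT-KO libraries, and bars are group means. The groups are apart in 14 of the 16 and overlap in RAC1 and KDELR2. Largest rises were named only where groups are apart (SNX8, C7orf26, ELFN1, DNAAF5, ZFAND2A, NUDT1 and BRAT1 among them), so this count is partly set by that rule. Every DCRT-KO library lies above every WT library in 34 of the 54 members and in 15.5% of all tested genes.

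The 7 members past the limma threshold were SNX8, C7orf26, ELFN1, DNAAF5, FSCN1, BRAT1 and FBXL18. SNX8, a sorting nexin of endosomes at 2251770 to 2354318, stood at 3.29, 3.48 and 3.54 FPKM in libraries a, b and c of WT, against 13.8, 11.6 and 11.3 in libraries 1, 2 and 3 of DCRT-KO (49, 36 and 42 against 42, 25 and 90 reads). Its WT values lay close together and its DCRT-KO mean was 3.57 times the WT mean (log2 difference 1.58 ± 0.20 SE, n = 3 each). C7orf26, also known as the Integrator subunit INTS15, at 6590021 to 6608726, stood at 12.6, 9.80 and 7.12 FPKM in WT, against 29.2, 32.4 and 28.7 in DCRT-KO, with a log2 difference of 1.55 ± 0.21 SE. Its DCRT-KO libraries were more than 2 times as high as the highest WT library. ELFN1, a leucine-rich repeat protein of synapses, stood at 2.51, 2.31 and 1.77 FPKM in WT, against 6.89, 8.36 and 6.22 in DCRT-KO, on 25, 16 and 14 against 14, 12 and 33 reads. The groups were again apart.

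DNAAF5, which helps to assemble the dynein arms of cilia, rose from a WT mean of 10.1 ± 0.308 FPKM to 25.6 ± 6.80 in DCRT-KO (SD, n = 3 each), and DCRT-KO library 3 was its lowest DCRT-KO library at 18.2 FPKM. BRAT1, a partner of BRCA1 and the damage kinase ATM, rose from 6.15 ± 1.55 to 13.3 ± 1.89 FPKM. FBXL18, an F-box subunit of ubiquitin ligases, rose from 11.4 ± 1.97 to 21.1 ± 2.32 FPKM. Both had DCRT-KO values that cleared the WT values with little room, 11.2 above 7.76 FPKM for BRAT1 and 18.7 above 13.4 for FBXL18. Once the trends of every library with GC and length were removed, all 7 log2 differences were smaller and still positive. SNX8 went from 1.58 to 1.27 and C7orf26 from 1.55 to 1.28, and both kept their call. DNAAF5 went from 1.23 to 1.01, ELFN1 from 1.35 to 0.97 and FSCN1 from 1.10 to 0.72, without a call. BRAT1 went from 1.02 to 0.62 and FBXL18 from 0.84 to 0.53, also without one.

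Promoter sequence was matched for 37 of the 54 members in the RefSeq table (GRCh38.p14; 250 bases before to 50 after the start). Promoters of SNX8 and DNAAF5, from among the 7 called genes, and of MIOS, which was not called and had lower DCRT-KO values, are shown to set out the base composition of the block, with GC boxes (GGGCGG, or CCGCCC on the other strand) in capitals.
SNX8, minus strand, chr7:2314392-2314691: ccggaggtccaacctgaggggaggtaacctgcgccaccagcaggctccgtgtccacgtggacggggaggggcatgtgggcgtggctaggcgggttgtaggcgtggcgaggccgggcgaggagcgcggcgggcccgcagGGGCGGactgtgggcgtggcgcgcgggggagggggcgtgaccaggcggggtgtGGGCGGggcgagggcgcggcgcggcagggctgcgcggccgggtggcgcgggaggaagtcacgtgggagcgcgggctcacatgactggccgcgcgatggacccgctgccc
DNAAF5, plus strand, chr7:726449-726748: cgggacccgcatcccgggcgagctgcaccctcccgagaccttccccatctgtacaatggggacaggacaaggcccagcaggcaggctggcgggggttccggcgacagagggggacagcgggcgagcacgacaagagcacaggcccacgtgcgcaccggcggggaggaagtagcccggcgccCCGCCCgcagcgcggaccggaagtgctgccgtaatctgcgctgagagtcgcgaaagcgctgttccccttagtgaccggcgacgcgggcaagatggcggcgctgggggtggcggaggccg
MIOS, plus strand, chr7:7566634-7566933: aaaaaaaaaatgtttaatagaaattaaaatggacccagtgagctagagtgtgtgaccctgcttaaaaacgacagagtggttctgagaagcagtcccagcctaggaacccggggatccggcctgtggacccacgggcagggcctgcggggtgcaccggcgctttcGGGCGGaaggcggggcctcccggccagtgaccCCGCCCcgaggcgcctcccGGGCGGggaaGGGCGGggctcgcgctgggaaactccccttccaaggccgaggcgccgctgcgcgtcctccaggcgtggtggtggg
Their GC contents were 77.7%, 71.7% and 65.0%, with 40, 35 and 25 CpG dinucleotides. A GC box was present in 29 of the 37 members' promoters and in 45.0% of all 35116 promoters of the table. TATAAA on either strand was present in 2 of the 37 and in 11.5% of all. The table's promoters were taken without regard to FPKM, unlike the members, so these shares are of unlike sets. Too few members were also matched for a comparison. MIOS held 4 GC boxes, SNX8 2 and DNAAF5 1. The 3 genes were picked with their values known, and any relation of boxes, GC content or CpG count to the log2 difference was not tested. These matches are letters in a window and say nothing of a factor.

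Among genes of actin, adhesion and migration, 8 of 8 members had higher values (median log2 difference 0.59). FSCN1 alone passed with limma, where 3.55% of all tested genes were called. The block was chosen for higher values and 48 of its 54 members had them, so the counts in this and the following lists follow largely from that choice. FSCN1, at 5592816 to 5606655, stood at 136, 114 and 142 FPKM in WT, against 266, 295 and 280 in DCRT-KO, a rise of 1.10 ± 0.16 SE on the log2 scale carried by 408 to 1428 reads per library. Both groups were tight and far apart. ACTB, nearby at 5527148 to 5563784 and the highest member, stood at 316, 248 and 297 FPKM in WT, against 401, 543 and 471 in DCRT-KO. The groups did not overlap, and ACTB (log2 difference 0.71 ± 0.19 SE) passed with voom but not with limma. Quantile normalization lowered the log2 difference of ACTB to 0.22 and that of FSCN1 to 0.64. ACTB has close paralogs and processed copies elsewhere, so the division of its reads is uncertain. RAC1, a GTPase of lamellipodia, stood apart from both with 72.0, 64.4 and 68.8 FPKM in WT, against 58.0, 58.8 and 102 in DCRT-KO. Libraries 1 and 2 of DCRT-KO lay under every WT value and library 3 above them, and the log2 difference of 0.04 ± 0.22 SE changed sign without DCRT-KO library 3 (-0.22), without WT library b and with quantile normalization (-0.11). Without both shallowest libraries, DCRT-KO 1 and 2, it was 0.57 ± 0.16 SE, so the value of RAC1 depended on which DCRT-KO libraries entered. SDK1, an adhesion protein whose gene spans 3301252 to 4269000, averaged 6.22 ± 0.330 FPKM in WT, against 11.3 ± 2.22 in DCRT-KO. MICALL2, an actin and Rab effector, averaged 1.46 ± 0.169 and 3.15 ± 0.639, also without overlap. SUN1, which links the nuclear envelope to the cytoskeleton, averaged 16.8 ± 1.71 and 19.6 ± 3.33, with overlapping groups.

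Signalling genes were few and mostly low. Of 6 members, LFNG, PDGFA, IQCE, GPR146 and GPER1 are the 5 that reached 1 FPKM only through DCRT-KO, so that their direction and the list's median log2 difference of 0.62 were largely set by that level. None of the 6 passed with limma, and GNA12 is the one member with both means over 1 FPKM. GNA12, the alpha subunit of a G protein, stood at 19.2, 17.01 and 18.1 FPKM in WT, against 27.3, 25.9 and 31.2 in DCRT-KO. Its groups did not overlap. LFNG, a fringe enzyme that modifies Notch, gave 3, 2 and 1 reads in WT, against 2, 9 and 6 in DCRT-KO, and its DCRT-KO mean of 3.08 ± 3.32 FPKM came mostly from library 2 with 6.92 FPKM. The estrogen-binding receptor GPER1 gave 2 reads in each WT library, against 2, 3 and 7 in DCRT-KO. Counts this small make the size of both differences imprecise.

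Of the transcription and chromatin genes 10 of 10 members were higher, against 48 of 54 in the block, with a median log2 difference of 0.77. C7orf26 alone passed with limma and 5 with voom, where 3.55% and 9.17% of all tested genes were called. INTS1, the large scaffold of the Integrator complex, stood at 18.8, 15.3 and 19.7 FPKM in WT, against 31.9, 44.5 and 27.7 in DCRT-KO (log2 difference 0.89 ± 0.21 SE). Its lowest DCRT-KO library exceeded its highest WT library. FOXK1, a forkhead repressor of autophagy and regulator of glycolysis genes, stood at 16.5, 20.2 and 17.9 against 33.6, 28.2 and 27.2 FPKM (log2 difference 0.67 ± 0.17 SE). MAFK, a small Maf partner of NRF2, averaged 4.25 ± 0.584 and 7.91 ± 0.561 FPKM. Of the 3 members named ZNF, ZNF316 averaged 1.55 ± 0.253 FPKM in WT, against 3.85 ± 1.81 in DCRT-KO, without overlap, and passed with voom. ZNF853 stood at 15.2, 7.62 and 4.12 FPKM there, against 2.90, 3.60 and 4.89 in WT. ZNF12 stood at 12.1, 5.54 and 12.1, against 5.81, 7.21 and 6.10 in WT. ZNF853 and ZNF12 overlapped between groups. USP42, a deubiquitinase of p53 and histones, had the smallest difference of the list, averaging 13.2 ± 0.935 and 14.6 ± 3.86 FPKM.

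Of 4 DNA repair and division genes 3 had higher DCRT-KO values, with a median log2 difference of 0.89, and BRAT1 passed with limma. NUDT1, which clears oxidised nucleotides, stood at 3.51, 3.19 and 3.24 FPKM in WT, against 9.04, 26.9 and 7.61 in DCRT-KO (19, 12 and 14 against 10, 21 and 22 reads). Library 2 set its mean of 14.5 ± 10.7 FPKM, although all 3 DCRT-KO libraries lay above WT; its log2 difference of 1.64 ± 0.40 SE passed with voom but not with limma, and was 1.11 without DCRT-KO library 2. PMS2, a mismatch repair endonuclease subunit with many pseudogene copies, averaged 1.90 ± 0.243 and 3.90 ± 0.4997 FPKM. RPA3, the small subunit of the single-strand binding protein RPA, had lower DCRT-KO values (3.13 ± 1.79 against 4.77 ± 2.35 FPKM) with overlapping groups. It overlaps the gene UMAD1, and the labels describe strand-specific kits without the strand setting used in counting; 20 members overlap another listed gene.

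In the list of membrane traffic, Golgi, lysosome and autophagy genes, 9 of 11 had higher values, with a median log2 difference of 0.48, lower than in the preceding lists; SNX8 passed with limma. KDELR2, the receptor that returns proteins to the endoplasmic reticulum, stood at 52.2, 43.3 and 46.3 FPKM in WT, against 50.1, 47.7 and 71.7 in DCRT-KO, where library 3 alone lay above every WT value. Its log2 difference was 0.23 with all libraries and 0.60 without both shallowest. WIPI2, which brings the lipidation machinery to the autophagosome, stood at 11.5, 10.4 and 9.66 against 12.0, 16.7 and 18.7 FPKM, without overlap but with DCRT-KO library 1 just above WT. CHST12, a Golgi sulfotransferase for chondroitin, averaged 4.49 ± 0.518 and 9.44 ± 2.61 FPKM. MIOS, a subunit of the GATOR2 complex upstream of mTORC1, stood at 10.8, 9.77 and 8.95 FPKM in WT, against 9.58, 6.38 and 7.98 in DCRT-KO, lower on average with groups that overlapped.

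Among genes of mitochondria, RNA modification and protein homeostasis, 5 of 6 had higher values (median 0.74) and FBXL18 passed with limma. RNF216, a ubiquitin ligase, stood at 11.7, 15.5 and 12.5 FPKM in WT, against 26.1, 20.4 and 17.3 in DCRT-KO. PSMG3, a chaperone of proteasome assembly, stood at 6.90, 8.51 and 7.17 against 12.6, 13.7 and 22.2 FPKM. ZFAND2A, an arsenite-inducible partner of the proteasome, stood at 6.77, 6.34 and 4.68 against 14.1, 18.8 and 9.84 FPKM. All 3 genes had groups apart and none passed with limma. COX19, an assembly factor of cytochrome c oxidase, showed no such gap, at means of 1.82 ± 0.637 and 1.73 ± 0.950 FPKM. Of 9 members in no list, 7 had higher values. They include TTYH3, a chloride channel protein, with 23.3, 18.4 and 19.9 FPKM in WT, against 25.8, 35.2 and 37.6 in DCRT-KO. DNAAF5 and ELFN1, described above, are the called members among these 9.

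The 6 members with lower DCRT-KO values, singled out after their values were seen, were COX19, SLC29A4, CCZ1, ANKRD61, MIOS and RPA3. In each of them the groups overlapped. ANKRD61, an ankyrin repeat gene, gave 18, 5 and 6 reads in WT, against 0, 0 and 6 in DCRT-KO. SLC29A4, a monoamine transporter, gave 31, 41 and 22 reads, against 2, 1 and 42 in DCRT-KO. DCRT-KO library 3 thus lay within or above WT for both, unlike libraries 1 and 2. CCZ1, with a near-identical copy CCZ1B in the block, averaged 1.07 ± 0.107 and 1.03 ± 0.379 FPKM, and its sign turned under several settings.

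**Figure D2:**
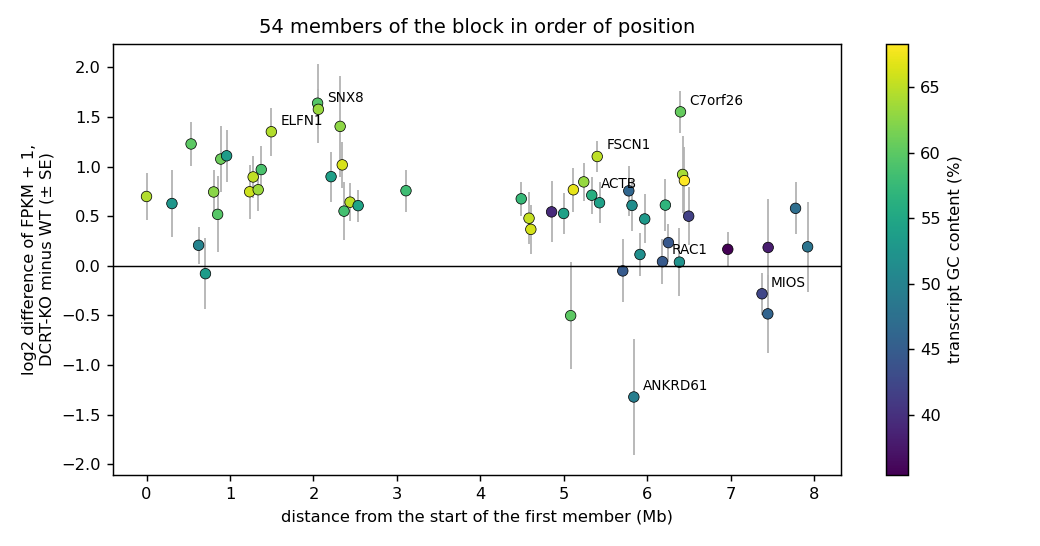
Log2 difference of FPKM + 1 (DCRT-KO minus WT, ± SE from limma, n = 3 each) of the 54 members against distance in Mb from the start of the first member, coloured by transcript GC content in percent. Members in the first 3 Mb are mostly above 0.5, and the 6 that start past 7 Mb, low in GC, scatter from -0.48 (RPA3) to 0.58 (GLCCI1).

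Along the chromosome, the median log2 difference by 1 Mb bin of gene start was 0.66 in the first Mb (6 members), 0.93 from 1 to 2 Mb (8), 0.96 from 2 to 3 Mb (8) and 0.67 from 5 to 6 Mb (10). It was 0.49 from 6 to 7 Mb (12 members) and 0.17 from 7 to 8 Mb (5). Between 2 and 3 Mb, from NUDT1 to GNA12, all 8 members lay above WT in every DCRT-KO library, against 15.5% of all tested genes. LFNG and IQCE, among these 8, met the level of 1 FPKM only through DCRT-KO. In the 2 bins from 3 to 5 Mb there were 1 and 3 members, at 0.76 and 0.48, and ICA1 alone stood between 8 and 9 Mb at 0.19. Bins of so few genes give no trend. The median was 0.59 over 32 on the plus and 0.67 over 22 on the minus strand, and strands were not tested against each other. Adjacent genes could still differ widely. ZDHHC4, a palmitoyltransferase, ended at 6589374 with means of 8.36 ± 2.86 FPKM in WT and 8.97 ± 4.54 in DCRT-KO. C7orf26 began at 6590021 with 9.84 ± 2.75 and 30.1 ± 2.03.

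Each library was also set against the WT mean, or for a WT library against the other 2. The median over members was 0.58, 0.76 and 0.67 for knockouts 1, 2 and 3. For WT a, b and c it was 0.10, 0.03 and -0.08. Higher values were found in 44, 46 and 52 of the 54 members in the DCRT-KO libraries. The shift was present in each DCRT-KO library, and was larger than any WT library's distance from the other 2. The block was chosen by the difference between these same groups, so this gap follows in part from the choice. Over all tested genes the same medians ran from -0.07 to 0.06. Thinned to the shallowest total of 373354 reads, the libraries gave a member median of 0.67 (0.59 to 0.71 over 20 draws) with 45 to 50 members higher.

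**Figure D3:**
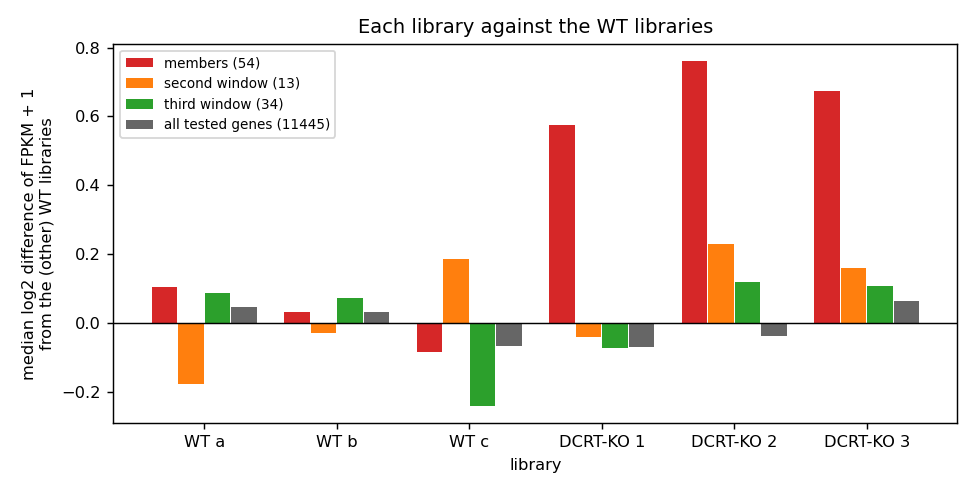
Median log2 difference of FPKM + 1 of each library from the WT mean (for a WT library, from the other 2 WT libraries), over the members, the second and the third 10 Mb window of chromosome 7 and all tested genes; bars start at 0. The members reach 0.58 to 0.76 in DCRT-KO libraries and stay between -0.08 and 0.10 in WT libraries.

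Neighbouring windows did not show this level on the deposited scale. From 10 to 20 Mb the median log2 difference was 0.09, with 7 of 13 genes higher. From 20 to 30 Mb it was 0.03, with 18 of 34 higher. NDUFA4, the first gene past the 10 Mb edge with a mean of at least 1 FPKM, starts at 10931943 and stood at 15.1, 13.5 and 16.7 FPKM in WT, against 12.6, 23.2 and 23.9 in DCRT-KO. Over the 461 tested genes of chromosome 7 outside the block the median was -0.02, with 226 higher. Its opposite end went the other way. From 130 to 160 Mb, 82 of 99 genes were lower, with medians of -0.49, -0.51 and -0.32 by 10 Mb window. Among 223 windows of the genome with at least 20 tested genes, the block had the highest median and the highest share of genes above WT in every DCRT-KO library (63.0%). Its place in this order is part of how it was chosen. The next windows by median were chromosome 2 from 240 to 250 Mb at 0.52 and chromosome 6 from 20 to 30 Mb, also 0.52. The window differences were not tested.

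**Figure D4:**
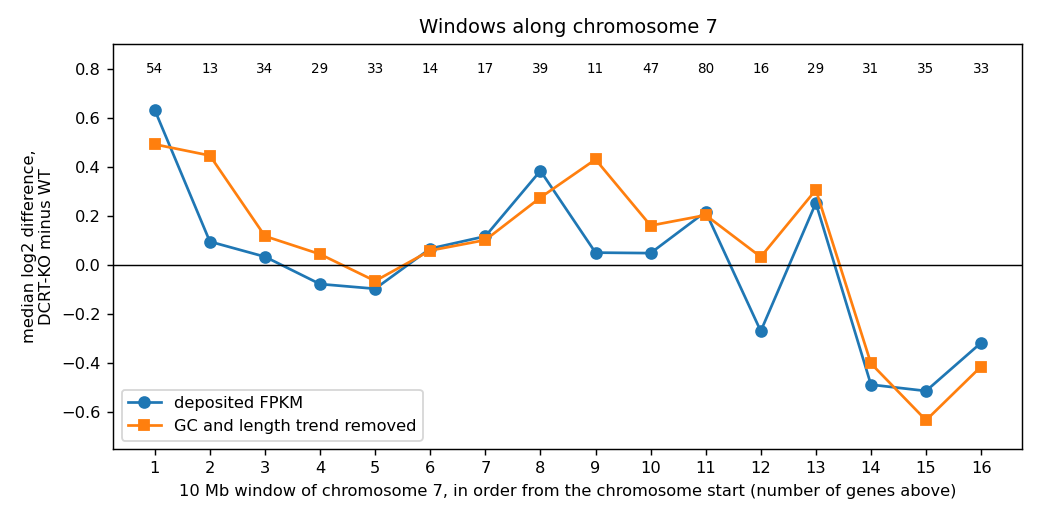
Median log2 difference (DCRT-KO minus WT) in the 16 windows of 10 Mb along chromosome 7, with the number of genes above, from deposited FPKM (circles) and after removal of GC and length trends (squares). The first window falls from 0.63 to 0.49 and the second rises from 0.09 to 0.45.

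Base composition goes with part of these differences. Transcript GC content (GENCODE 29, longest protein-coding transcript) had a median of 57.1% in the members, 40.2% from 10 to 20 Mb, 43.5% from 20 to 30 Mb and 48.4% over all tested genes. The 42 members at or over the median of all genes had a median log2 difference of 0.73 and the 12 under it 0.19. Tested genes outside the block also differed by GC content, with 0.17 over 5676 GC-rich and -0.22 over 5705 GC-poor genes. Across genes, Spearman's rank correlation of GC content with the log2 difference was 0.62 over the 54 members and 0.43 over 11437 tested genes, and across the 223 windows 0.62; all these points share the same 6 libraries. After removal of the GC and length trends the member median was 0.49, 47 of 54 were higher, and the block was still the highest of 223 windows, while 2 members were called. Medians by 1 Mb bin changed with it in both directions. The bin from 7 to 8 Mb went from 0.17 to 0.52, that from 4 to 5 Mb from 0.48 to 0.10, and the first Mb from 0.66 to 0.39. The step at the 10 Mb edge changed too, since the window from 10 to 20 Mb went to 0.45, while that from 20 to 30 Mb was 0.12. The GC-poor genes from 10 to 20 Mb were thus near the members on that scale, and where the block ends depends on this correction. At the opposite end of the chromosome, from 130 to 160 Mb, median GC content was 48.6%, near that of all tested genes. Its 10 Mb windows, in order, stood at -0.40, -0.63 and -0.41 after the removal. The part of GC content in the result was not tested beyond this removal, and depth and genotype cannot be told apart.

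**Figure D5:**
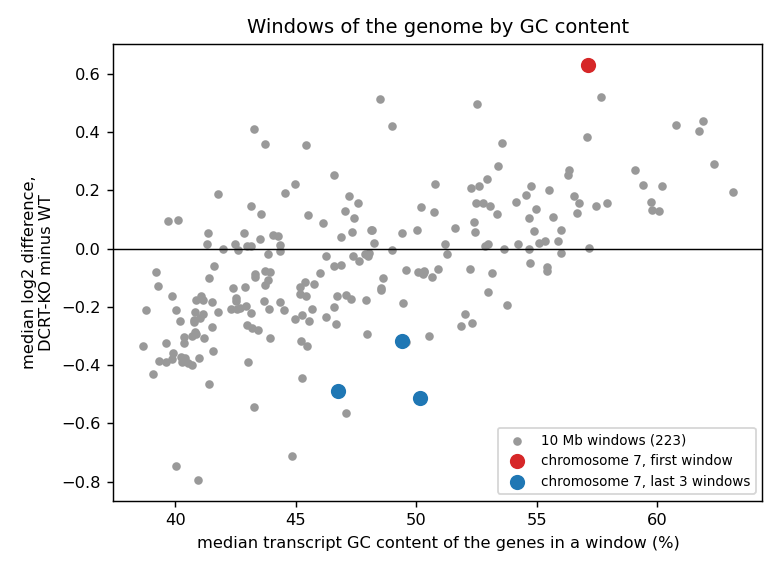
Median log2 difference (DCRT-KO minus WT) of 223 windows of 10 Mb with at least 20 tested genes against the median transcript GC content of their genes in percent. The first window of chromosome 7 is the highest point, at 0.63, and the last 3 windows of the chromosome lie at -0.32 to -0.51.

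Since PTBP1 binds pyrimidine-rich RNA, the letters UCUU (TCTT in the transcript sequence) were counted on the sense strand of each longest protein-coding transcript, overlaps allowed. Members had a median of 3.96 per kb, and all tested genes 5.09. Across the 54 members the rank correlation of this density with the log2 difference was -0.43, against -0.33 over all tested genes. Its correlation with GC content over the members was -0.61, so density and GC content go together. The 30 bases richest in pyrimidines are shown for 4 called members and for MIOS, with UCUU in capitals.
FSCN1, bases 2287 to 2316: ccgTCTTcctcctgtcTCTTtcctttcacc
ELFN1, bases 3306 to 3335: TCTTctctgcctttTCTTttcctctctatc
SNX8, bases 3978 to 4007: cacctccctccccttcctcctctgccaccc
C7orf26, bases 541 to 570: cagattattttttcatcccttttcagccct
MIOS, bases 973 to 1002: tgatgcttgtctgtcTCTTtgttggcttcc
They hold 27, 28, 27, 23 and 22 pyrimidines of 30, against a median of 25 over members and 26 over all tested genes. SNX8 and C7orf26, with the largest rises that passed, had no UCUU in that stretch. The called members not shown, DNAAF5, BRAT1 and FBXL18, had no UCUU there either, with 25, 24 and 25 pyrimidines. The stretches come from GENCODE 29 and are not binding sites measured here.

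The threshold of 1 FPKM passed close to several genes. Just inside it lay CCZ1, GPER1 and GPR146 (mean 1.05, 1.05 and 1.24 FPKM), and just outside AMZ1, MAD1L1 and PAPOLB (0.988, 0.937 and 0.922). MAD1L1, a spindle checkpoint protein, gave 11, 4 and 6 reads in WT, against 1, 8 and 11 in DCRT-KO. PAPOLB, a testis poly(A) polymerase gene inside RADIL, gave 13, 25 and 4 against 0, 0 and 4 reads. AMZ1, a metalloprotease, gave 25, 20 and 6 against 1, 3 and 11 reads. Their log2 differences were 0.62 for MAD1L1, -0.998 for PAPOLB and -0.19 for AMZ1, of both signs.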

How the data were processed

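The authors deposited 1 table of FPKM values for 20024 genes with their positions, per the file header. The submitters' processing notes name cutadapt 1.2.1, and for aligner, counter and build the entry is: not given in the sources used here. All 54 member genes overlap GENCODE 29 (GRCh38) and 24 have the same start and end; positions are printed as deposited. Reads were recovered from FPKM and length, and came out whole for 100% of values (tolerance 1e-06). WT columns repeat a number, were matched to the group only and are called a, b and c. Genes of mean at least 1 FPKM (11445) entered a two-sided limma fit (version 3.58.1, R 4.3.3) of log2(FPKM + 1) with its trended variance, and p was adjusted over all of them by Benjamini-Hochberg at a threshold of 0.05. Where replicates are not separate cultures, p covers technical spread only. The fit was tested on simulated data with 200 changed genes, where it called 48% of 2-fold and 85% of 4-fold changes. Spread between the simulated libraries was assumed (dispersion 0.0125), so these rates need not hold for the real libraries. GC content and length trends were removed per library by lowess (span 0.3, statsmodels 0.14.6). Named genes were the 8 of highest mean, the 10 largest rises and 6 largest falls without overlap and with a higher mean of at least 2 FPKM, 2 per role list and those at the edges; no member met the rule for falls. Other members are named to show their list, after their values were seen. The members, lists and tests were chosen with earlier results of these data known. Settings tried were the pseudocount, filters, scaling, variance model, voom, thinning, the GC trend, the edges of the block, gene copies and each library left out; 1 was added after seeing the data.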

Additional observations from a re-analysis of the deposited data

How the results depend on the processing

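The member median of 0.63 stayed above 0 in every setting run, and the count of higher members was 48 with all libraries. The median was 0.75 with a pseudocount of 0.1, 0.77 with voom, 0.49 with GC and length trends removed, 0.75 in the first 5 Mb alone (25 of 26 higher, 4 called) and 0.51 from 5 to 10 Mb (23 of 28, 3 called). Leaving out 1 library gave 0.61 to 0.68, with 45 to 49 higher. In the 25 members with at least 20 reads in every library, a setting chosen after seeing the data, 25 were higher. This level of reads binds mainly in the shallower DCRT-KO libraries, so it favours members that are high there. MIOS, lower in DCRT-KO, failed it only through its 16 reads in DCRT-KO library 2. The count of 25 is therefore partly set by the filter. Calls were less stable, set against 7 members and 406 genes. No filter gave 3 and 122, no variance trend 4 and 134, and voom 21 and 1049. GC and length removal gave 2 and 160, and thinning 2 and 74 (medians of 20 draws). A filter of 5 FPKM left 34 members and gave 12 and 563. Without both shallowest libraries limma called 0 members (28 at an unadjusted p below 0.05; voom called 21 with all libraries) and 38 genes, DCRT-KO library 3 being assumed to vary like WT. Leaving out 1 library gave 0 to 18 members and 0 to 1528 genes. The window from 10 to 20 Mb ran from -0.067 to 0.17 over libraries left out, was 0.45 with GC and length removed and 0.26 with a filter of 5 FPKM; that from 20 to 30 Mb ran from -0.12 to 0.12. The cause of these changes was not tested, apart from fewer libraries or genes where a setting drops them.

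Among 24 named members, 312 values kept sign and call, 56 lost and 23 gained the call and 11 changed sign. CCZ1 went to 0.29 with quantile normalization, 0.040 with voom, 0.11 with GC removal, without DCRT-KO library 1 and without both shallowest libraries, and 0.077 thinned; without a library it ran from -0.14 to 0.11. RAC1 went to -0.11 with quantile normalization and ran from -0.22 to 0.179 without a library, and was 0.57 without both shallowest, and ICA1 from -0.12 to 0.70. With quantile normalization 262 genes were called higher and 265 lower, against 269 and 137. No paired analysis was possible because 2 WT columns share 1 number and so match no single sample. Depth limits genes of few reads, where 3 reads are 1.16 to 8.04 RPM.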
